A study of Mus musculus with 23 samples.

Results

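The 8 genes described here encode the TAM receptors (Axl, Mertk and Tyro3), the TAM ligands Gas6 and Pros1, the bridging protein Mfge8 and the engulfment proteins Elmo1 and Dock1. They were taken by symbol from the 33280 genes of the count table, and each symbol matched 1 gene. RNA sequencing was carried out on 23 libraries of brain macrophages from adult Ccr2creERT2/+ R26tdT/tdT mice of both sexes. Every group carried these alleles and every animal received 3 doses of tamoxifen at 2 mg (on the last day of gavage and 2 and 4 days later) and a thromboembolic stroke, produced with thrombin in the middle cerebral artery, 1 day before the cells were taken. BLZ945 blocks the CSF-1 receptor, on which macrophages depend for survival, and was given at 200 mg/kg for 7 days to some of the mice, and the others (CTL) received vehicle. The stroke followed 8 weeks after the gavage. Microglia (MG, CD206-negative) and CD206-positive subdural CNS-associated macrophages (sdCAMs), which line the leptomeninges and vessels, were sorted from coronal brain slices without choroid plexus. There were 5 libraries each of MG CTL, MG BLZ945, tdT- sdCAM CTL and tdT- sdCAM BLZ945, and 3 of tdT+ sdCAM BLZ945.

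The tdTomato label is switched on by a Cre recombinase under Ccr2 control, so tdT+ cells descend from cells that used Ccr2, a monocyte receptor gene, when tamoxifen was given, and tdT- cells also include any such descendants that escaped labelling. Each BLZ945 library pooled the cells of 2 mice, except that a single mouse gave the F2 libraries, and each CTL library came from 1 mouse. The library names of BLZ945 F2 and BLZ945 M1 shared 1 animal number, so these libraries may not be fully independent. MG, tdT- and tdT+ libraries with the same name and treatment came from the same animals.

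TAM receptors are receptor tyrosine kinases that recognise dying cells indirectly. Phosphatidylserine, a lipid exposed on the surface of apoptotic cells, is bound by Gas6 or protein S (the product of Pros1), which in turn bind the receptor and start engulfment while damping inflammatory signalling. Mertk is the receptor most associated with quiet, tissue-resident macrophages, Axl is typically induced by inflammation and interferon, and Tyro3 is best known in neurons. Mfge8 links phosphatidylserine to integrins in place of a TAM receptor, and Elmo1 and Dock1 form the exchange factor that activates the GTPase Rac when a target is engulfed.

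Regulatory sequence is shown for Axl, the member called after BLZ945 in MG, for Mertk, the other receptor well above the detection floor, and for Gas6, a ligand that was higher in all sdCAM than in all MG libraries. The 250 bases before each RefSeq start were read 5' to 3' on the gene's strand from RefSeq (GRCm38.p6), at chr7:25788734-25788983 (minus strand) for Axl, chr2:128698665-128698914 (plus strand) for Mertk and chr8:13494536-13494785 (minus strand) for Gas6. Capitals mark matches, on either strand, to any of 8 motifs searched: GC box (GGGCGG), ETS core (GAGGAA), AP-1 motif (TGANTCA), GAS element (TTCNNNGAA), interferon response element, E-box (CACGTG), RUNX motif (TGTGGT) and nuclear receptor half-site (AGGTCA).
Axl: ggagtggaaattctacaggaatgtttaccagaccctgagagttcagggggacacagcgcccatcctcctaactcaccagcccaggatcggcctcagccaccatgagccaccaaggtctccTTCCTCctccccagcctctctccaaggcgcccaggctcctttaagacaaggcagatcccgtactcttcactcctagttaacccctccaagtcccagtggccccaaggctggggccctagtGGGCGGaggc
Mertk: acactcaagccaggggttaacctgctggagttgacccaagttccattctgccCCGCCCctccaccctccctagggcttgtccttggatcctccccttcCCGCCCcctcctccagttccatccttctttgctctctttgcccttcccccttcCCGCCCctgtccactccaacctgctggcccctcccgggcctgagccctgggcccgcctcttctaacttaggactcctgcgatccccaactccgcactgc
Gas6: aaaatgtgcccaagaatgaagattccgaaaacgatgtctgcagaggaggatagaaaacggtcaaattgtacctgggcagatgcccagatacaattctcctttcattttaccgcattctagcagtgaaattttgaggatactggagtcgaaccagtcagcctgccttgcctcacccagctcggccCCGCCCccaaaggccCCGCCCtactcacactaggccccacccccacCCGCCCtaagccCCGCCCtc
Axl held 1 GC box, which began 10 bases before the start, and 1 ETS core. Mertk held 3 GC boxes and Gas6 held 4, with no match to the other 7 motifs in either, and no matches overlapped. A GC box was present in 32.7% of 32851 RefSeq promoters of the same length and an ETS core in 23.3%, so these matches are common and describe letters only.

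Library depth ranged from 9433960 to 13276081 counts. Values are CPM, counts brought to a common library size with TMM factors, and a floor of 3 counts corresponded to 0.226 to 0.318 CPM by library total. By the markers of the 2 populations, the MG and sdCAM libraries matched their labels. The summed CPM of 6 MG markers was 17103 to 26107 in MG libraries and 1152 to 2355 in sdCAM libraries, and that of 6 sdCAM markers was 12.0 to 49.1 in MG and 11470 to 16957 in sdCAM libraries. Among markers of other cells, the 4 dendritic cell markers summed to 222 to 782 CPM in tdT- sdCAM CTL, 30.9 to 160 in tdT- sdCAM BLZ945, 34.7 to 84.5 in tdT+ sdCAM BLZ945 and at most 8.86 in MG, with Cd209a alone at 209 to 755 CPM in tdT- sdCAM CTL and Xcr1 at 0 in every sdCAM library. The 5 monocyte markers reached 231 CPM in tdT- sdCAM BLZ945 F1 and 100.04 in M1 of the same group, against at most 43.0 in the other libraries, the tdT+ libraries among them. These lists do not check the sort by tdTomato. The 4 astrocyte markers summed to 35.98 to 248 CPM in sdCAM and at most 8.04 in MG libraries. Gja1 alone was 41.8 to 240 CPM in tdT- sdCAM CTL, where Gfap, Aqp4 and Slc1a2 were each at most 13.8. The 4 neuron markers summed to 38.1 to 111 CPM in sdCAM and at most 12.2 in MG libraries, and the 5 fibroblast markers to 15.3 to 57.2 and at most 2.38. Neutrophil markers reached at most 74.1 CPM and T and NK cell markers at most 7.82. The oligodendrocyte (49.3 to 275.2), endothelial (4.07 to 38.7) and mural (0.882 to 45.1) lists overlapped between MG and sdCAM libraries. In bulk samples, fewer cells of a type and less RNA per cell cannot be told apart.

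A gene was called when its adjusted p was under 0.05 in edgeR's quasi-likelihood test with Benjamini-Hochberg adjustment over all genes tested. All p-values below are from that test unless another is named.

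The receptor Axl differed most in level across the 5 groups. In MG CTL it stood at 7.11, 9.75, 39.9, 13.32 and 9.11 CPM in libraries F1, F2, F3, M1 and M2. In MG BLZ945 the same order gave 94.3, 55.0, 72.2, 83.4 and 72.2 CPM. Every MG BLZ945 library therefore lay above every MG CTL library, including F3, the 1 MG CTL library that stood apart from the other 4. Axl was 4.71-fold higher in MG BLZ945 than in MG CTL (log2 fold change 2.24 ± 0.37 (SE), adjusted p = 0.0100). It was the only member called of the 7 tested in this comparison, where 0.408% of 11264 genes were called (46 genes, and 22 to 102 when 1 library was left out), and the only member whose libraries did not overlap, which held for 3.09% of genes.

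Library MG CTL F3 also held the most Mrc1, the gene of the sorting marker CD206, at 35.7 CPM against 5.19 to 10.6 in the other MG CTL libraries. The 6 sdCAM markers summed to 49.1 CPM in F3 and 22.4 to 40.6 in the others, and without Mrc1 the sum was lowest in F3. Neutrophil markers summed to 23.5 CPM in F3 and at most 2.46 in the other MG CTL libraries. In MG BLZ945, where Axl was high in all 5 libraries, Mrc1 was 3.26 to 6.16 CPM and the 6 sdCAM markers summed to 12.0 to 34.3. Pf4 reached 18.4 CPM in MG BLZ945 and 8.36 in MG CTL, and Ms4a7 reached 16.8 and 6.38. Lyve1, Cd163 and F13a1, like Mrc1, reached higher values in MG CTL. Without MG CTL F3 the Axl difference was larger (log2 fold change 2.92, adjusted p = 4.64e-06). The B cell list moved the other way, at 30.9 to 49.2 CPM in MG CTL and 3.003 to 9.69 in MG BLZ945, carried by Cd79b, with Cd79a and Ms4a1 at no more than 1.68 CPM. The mural list was 6.01 to 19.6 CPM in MG CTL and 1.102 to 8.57 in MG BLZ945. The endothelial list was 14.9 to 22.6 CPM in MG CTL and 4.07 to 16.2 in MG BLZ945, with Pecam1 at 11.5 to 17.8 and 1.27 to 9.19 CPM. Their part in the result was not tested.

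In tdT- sdCAMs Axl was far above the level of MG CTL and did not rise with BLZ945. It was 240, 184, 146, 201 and 107 CPM in tdT- sdCAM CTL and 178, 134, 162, 207 and 65.5 CPM in tdT- sdCAM BLZ945. The groups overlapped almost completely, with the lowest value in M2 in both (log2 fold change -0.22 ± 0.26 (SE), 95% interval -0.78 to 0.33, adjusted p = 1.00). The change in tdT- sdCAMs minus the change in MG was -2.47 ± 0.53 (SE) on the log2 scale (95% interval -3.57 to -1.38), with an unadjusted p of 0.000121 and an adjusted p of 0.103. The difference between the populations in their response was thus not called, in a fit that called 0.0394% of 12697 genes (5 genes, and 0 to 36 when 1 library was left out). It was called without MG CTL F3 (-3.16, adjusted p = 0.00104), and the adjusted p ranged from 0.00346 with DESeq2 to 0.188 over the other settings with all libraries.

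The highest Axl levels were in tdT+ sdCAMs, at 302, 274.3 and 301 CPM in libraries F2, F3 and M2. These were above all 10 tdT- sdCAM libraries. The 3 tdT+ libraries exceeded the tdT- libraries of the same animals by 1.69 to 4.6004 times. The fitted difference from tdT- sdCAM BLZ945 was 0.95 ± 0.30 (SE, log2 fold change), with an unadjusted p of 0.00536 and an adjusted p of 0.472, and was not called. A fit of the 13 BLZ945 libraries with the animal as a replicate block, added after the data were seen, gave 1.27 (adjusted p = 0.208). Against tdT- sdCAM CTL it was 0.73 ± 0.30 (SE, adjusted p = 0.604). These comparisons share the tdT+ libraries and are not independent.

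**Figure D1:**
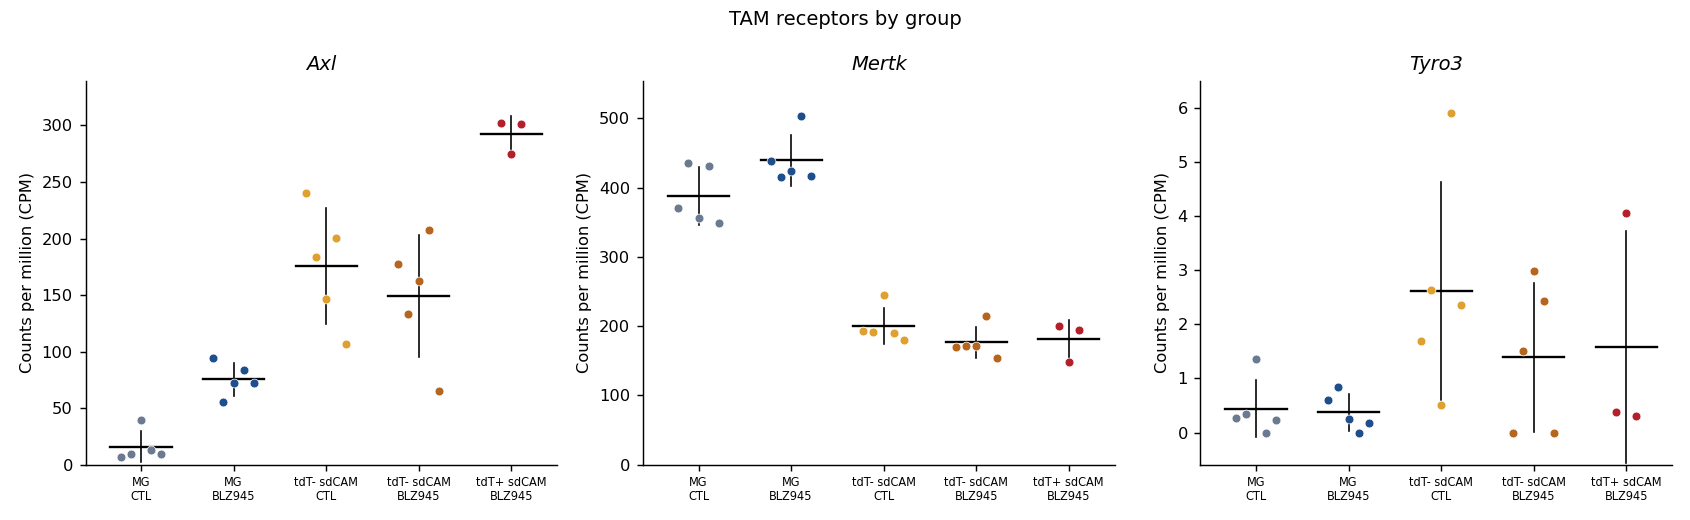
CPM of Axl, Mertk and Tyro3 (vertical axes, linear) in each library of the 5 groups. Points are libraries, horizontal lines means and vertical lines 1 SD. Mean Axl ranged from 15.8 in MG CTL to 293 in tdT+ sdCAM BLZ945, Mertk was highest in both MG groups, and Tyro3 stayed at or under 5.90 CPM.

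Mertk separated the populations in the other direction, with its higher levels in MG. It was 371, 435, 356, 431 and 348 CPM in MG CTL and 438, 414, 424, 503 and 417 in MG BLZ945. In tdT- sdCAM CTL it was 192, 192, 245, 190 and 180 CPM, in tdT- sdCAM BLZ945 170, 171, 172, 215 and 154, and in tdT+ sdCAM BLZ945 199, 149 and 194. All MG libraries were above all sdCAM libraries, and within each population the treatments overlapped. BLZ945 left an interval of -0.05 to 0.37 (log2 fold change) around a difference of 0.16 in MG (adjusted p = 0.523) and -0.46 to 0.14 around -0.16 in tdT- sdCAMs (adjusted p = 0.998). tdT+ and tdT- sdCAM BLZ945 differed by 0.01 (95% interval -0.33 to 0.36).

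Tyro3 was near the detection floor. It was at or under 3 counts in 6 of the 10 MG libraries and in 3 of the 8 BLZ945 sdCAM libraries, and its highest value was 5.90 CPM, in tdT- sdCAM CTL M1. It did not pass the filter in the MG fit. In the other fits its SE was at least 1.19 on the log2 scale, and no difference was called.

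The receptors were compared with each other per kilobase of exon, using the union exon lengths of 5.033 kb for Axl and 4.336 kb for Mertk. Axl was at 0.036 ± 0.034 times Mertk in MG CTL (SD, n = 5), where F3 was at 0.097 and the other 4 libraries at 0.017 to 0.027, with a mean of 0.0213 ± 0.0044 without F3 (SD, n = 4, added after the data were seen). It was at 0.148 ± 0.025 in MG BLZ945 (SD, n = 5). The ratio was 0.768 ± 0.250 in tdT- sdCAM CTL and 0.717 ± 0.213 in tdT- sdCAM BLZ945 (SD, n = 5 each). In tdT+ sdCAM BLZ945 it was 1.41 ± 0.155 (SD, n = 3), with all 3 libraries between 1.31 and 1.59. Axl exceeded Mertk per kilobase in every tdT+ library and in 1 of the 10 tdT- libraries, and never in MG.

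The ligand Gas6 set the sdCAMs apart from MG more evenly than Axl did. It was 221, 223, 158, 283.005 and 242 CPM in MG CTL and 195, 122, 185, 127 and 197 in MG BLZ945. In tdT- sdCAM CTL it was 1469, 1468, 1184, 1644 and 1223 CPM, in tdT- sdCAM BLZ945 1227, 1056, 1294, 1588 and 1149, and in tdT+ sdCAM BLZ945 989, 909 and 1347. The lowest sdCAM library thus held over 3 times the CPM of the highest MG library. Gas6 was lower in MG BLZ945 than in MG CTL by a log2 fold change of -0.46 ± 0.16 (SE), with an unadjusted p of 0.0123 and an adjusted p of 0.247, and was not called. In tdT- sdCAMs the BLZ945 difference was -0.13 (95% interval -0.46 to 0.19).

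Pros1, the other TAM ligand, was highest in MG and lowest in tdT+ sdCAMs. It ranged from 509 to 680 CPM in MG CTL (median 592) and from 531 to 699 in MG BLZ945 (median 666). It ranged from 310 to 455 CPM in tdT- sdCAM CTL (median 423) and from 312 to 495 in tdT- sdCAM BLZ945 (median 438). The tdT+ libraries F2, F3 and M2 were at 202, 256 and 366 CPM, and overlapped the tdT- libraries through M2 alone. Against tdT- sdCAM BLZ945 the log2 fold change was -0.57 ± 0.22 (SE), with an unadjusted p of 0.0205 and an adjusted p of 0.617. Within animals, Pros1 was lower in tdT+ than in tdT- cells in 2 of 3 pairs.

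Per kilobase, the balance of the ligands was reversed between the populations. Gas6 was at 0.624 ± 0.121 times Pros1 in MG CTL and 0.425 ± 0.103 in MG BLZ945 (SD, n = 5 each). It was at 5.53 ± 0.679 times Pros1 in tdT- sdCAM CTL, 5.08 ± 0.646 in tdT- sdCAM BLZ945 (SD, n = 5 each) and 6.48 ± 1.19 in tdT+ sdCAM BLZ945 (SD, n = 3). No library of one population reached the range of the other.

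Mfge8 was a low transcript with no called difference between tdT+ and tdT- cells. In tdT- sdCAM BLZ945 it was 13.29, 1.84, 9.04, 4.59 and 8.27 CPM. In tdT+ sdCAM BLZ945 it was 42.9, 45.4 and 16.1 CPM in F2, F3 and M2, above every tdT- library of the same treatment. The log2 fold change was 2.203 ± 0.55 (SE), with an unadjusted p of 0.00107 and an adjusted p of 0.255. DESeq2 called it (adjusted p = 0.00727), as did a model of all 23 libraries (adjusted p = 0.00906), while the fit of the 13 BLZ945 libraries with the animal as a replicate block did not (adjusted p = 0.428). The count behind the lowest tdT- value was 17. MG libraries held 17.7 to 30.4 CPM and tdT- sdCAM CTL 8.02 to 19.4, which overlapped the tdT+ libraries. Between tdT+ and tdT- sdCAM BLZ945 the B cell list also differed, at 11.3 to 52.5 and 0 to 6.27 CPM, carried by Cd79b with Cd79a at 0, and the mural list was 2.97 to 45.1 and 0.882 to 21.6 CPM. Their part in the Axl and Mfge8 values was not tested. Leaving out tdT- sdCAM BLZ945 F1 or M1, the libraries with the most monocyte markers, no member was called in any sdCAM comparison.

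**Figure D2:**
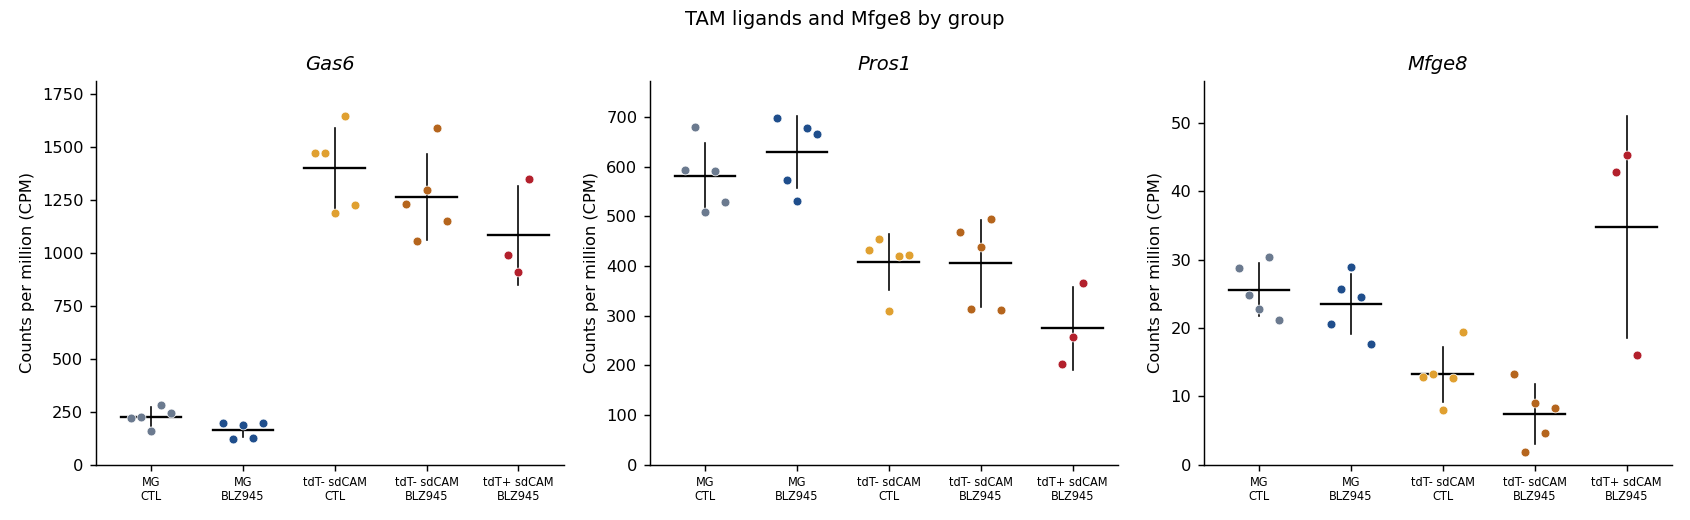
CPM of Gas6, Pros1 and Mfge8 (vertical axes, linear) in each library of the 5 groups, with points, means and SD drawn as for the receptors. All 13 sdCAM libraries were above all MG libraries for Gas6 (lowest 909 CPM) and all were below them for Pros1, and Mfge8 was at 16.1 to 45.4 in tdT+ sdCAMs.

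Across the sdCAM groups no member was called. In tdT- sdCAM BLZ945 against CTL, 0 of the 8 members were called in a fit that called 0% of 13076 genes by edgeR, with 697 genes at an unadjusted p under 0.05 and 69 called by DESeq2. No member had an unadjusted p under 0.05 there and none had libraries that did not overlap, against 1.84% of genes. For tdT+ against tdT- sdCAM BLZ945, 0 of 8 members were called (0.206% of genes), 3 had an unadjusted p under 0.05 (Axl, Pros1 and Mfge8), beside 903 of 13076 genes, and 2 did not overlap (3.4% of genes). For tdT+ sdCAM BLZ945 against tdT- sdCAM CTL, which differ in both label and treatment, 0 of 8 were called (0.283% of genes), the same 3 had an unadjusted p under 0.05, beside 973 of 13076 genes, and only Axl did not overlap (8.16% of genes).

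The engulfment genes Elmo1 and Dock1 differed in opposite directions between the populations. Elmo1 ranged from 185 to 284 CPM in MG CTL (median 261) and from 200.3 to 330 in MG BLZ945 (median 265). It ranged from 57.3 to 116 CPM in tdT- sdCAM CTL (median 76.7) and from 53.2 to 135 in tdT- sdCAM BLZ945 (median 70.9), and was 99.3, 41.6 and 89.0 in the tdT+ libraries. Dock1 was lower in level, from 10.5 to 20.95 CPM in MG CTL (median 12.9) and 10.95 to 15.4 in MG BLZ945 (median 11.2). It ranged from 19.5 to 46.2 CPM in tdT- sdCAM CTL (median 26.4) and from 8.30 to 36.9 in tdT- sdCAM BLZ945 (median 22.5), and was 21.2, 23.2 and 17.7 in tdT+ sdCAM BLZ945. Elmo1 thus did not overlap between MG and sdCAMs, while Dock1 overlapped through MG CTL F1 and tdT- sdCAM BLZ945 M1. Neither differed detectably with BLZ945 within a population.

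**Figure D3:**
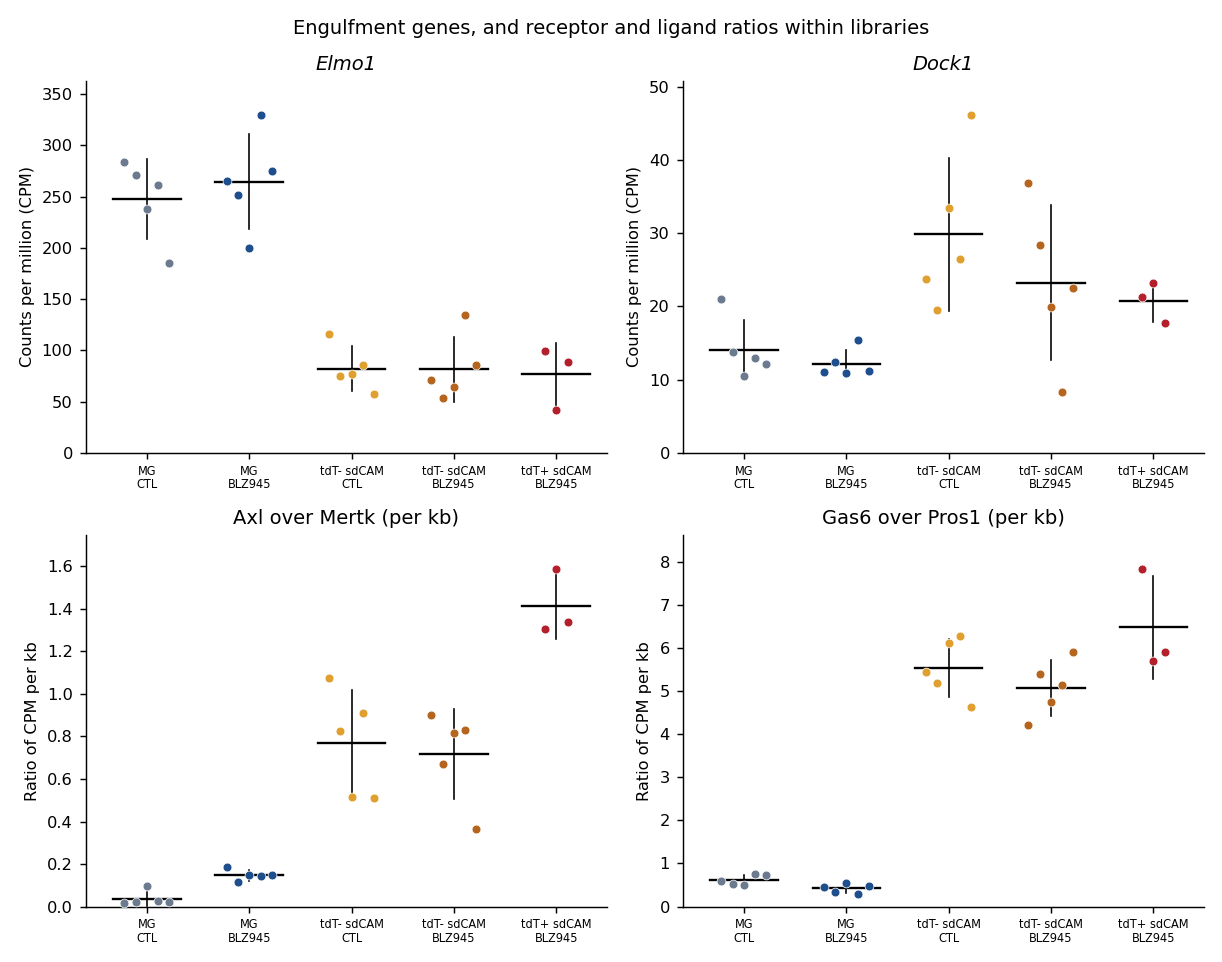
Upper panels give CPM of Elmo1 and Dock1 and lower panels the ratio per kilobase of Axl to Mertk and of Gas6 to Pros1 within each library, all on linear axes, for the 5 groups. Points are libraries, horizontal lines means and vertical lines 1 SD. Mean Elmo1 was 248 in MG CTL and 82.2 in tdT- sdCAM CTL, and the mean ratio of Axl to Mertk went from 0.036 in MG CTL (0.0213 without F3) to 1.41 in tdT+ sdCAM BLZ945.

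The comparison of the sorted populations asks how border macrophages and microglia of the same brains differ. In CTL mice, tdT- sdCAMs held 11.1 times the Axl and 6.19 times the Gas6 of MG (log2 fold changes 3.47 ± 0.40 and 2.63 ± 0.17 (SE), adjusted p = 8.04e-07 and 1.27e-10). Without MG CTL F3, the library with the most Axl in its group, Axl was 17.8-fold higher (4.15, adjusted p = 3.64e-09). Dock1 was 2.11-fold higher (1.08 ± 0.32 (SE), adjusted p = 0.0165). Mertk fell by 0.96 ± 0.11 on the log2 scale (SE, adjusted p = 8.72e-07), Pros1 by 0.51 ± 0.14 (SE, adjusted p = 0.00951) and Elmo1 by 1.60 ± 0.22 (SE, adjusted p = 7.76e-06). Mfge8 (-0.96, adjusted p = 0.0556) and Tyro3 (2.53, adjusted p = 0.137) were not called. Mfge8 was called by DESeq2 (-0.95, adjusted p = 0.0234) and without tdT- sdCAM CTL M2 (-1.14, adjusted p = 0.0364). The 6 called members stand against 25.6% of 12697 genes called, and 6 of the 8 members did not overlap between the groups, against 26.8% of genes. With the animal as a replicate block Dock1 was no longer called (adjusted p = 0.0633), and without tdT- sdCAM CTL M2 likewise (adjusted p = 0.0654).

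In BLZ945 mice the members differed between the populations in the same directions. Gas6 in tdT- sdCAMs was 7.70 times its MG level (log2 fold change 2.95 ± 0.18 (SE), adjusted p = 2.41e-11), and Mertk, Pros1, Mfge8 and Elmo1 fell by 1.31, 0.63, 1.66 and 1.68 on the log2 scale (SE 0.11, 0.14, 0.37 and 0.22, adjusted p = 9.85e-09, 0.00182, 0.00150 and 3.96e-06). Axl was 1.99-fold higher (1.00 ± 0.37 (SE), adjusted p = 0.0423) and Dock1 1.92-fold higher (0.94 ± 0.32 (SE), adjusted p = 0.0307). This made 7 of 8 members called, against 32.4% of genes, and 5 without overlap, against 22%. The calls of Axl and Dock1 were close to the threshold. With the animal as a replicate block both were lost (adjusted p = 0.0547 and 0.124), and leaving out single libraries ended the Axl call in 8 of 10 cases and the Dock1 call in 6 of 10.

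For tdT+ sdCAMs against MG of BLZ945 mice, 5 of 8 members were called, against 18.9% of 12868 genes, and 6 did not overlap, against 34.8%. Axl was 3.91-fold higher (1.97 ± 0.27 (SE), adjusted p = 9.89e-05) and Gas6 6.59-fold higher (2.72 ± 0.20 (SE), adjusted p = 1.25e-07). Mertk fell by 1.27 ± 0.15 (SE, adjusted p = 2.84e-05), Pros1 fell by 1.18 ± 0.22 (SE, adjusted p = 0.00128) and Elmo1 fell by 1.78 ± 0.33 (SE, adjusted p = 0.00135) on the log2 scale. Mfge8 (0.57, adjusted p = 0.495), Dock1 (0.77, adjusted p = 0.218) and Tyro3 (2.06, adjusted p = 0.397) were not called. The astrocyte, neuron, fibroblast and dendritic cell markers given above were also higher in sdCAM than in MG libraries, and their part in these results was not tested.

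**Figure D4:**
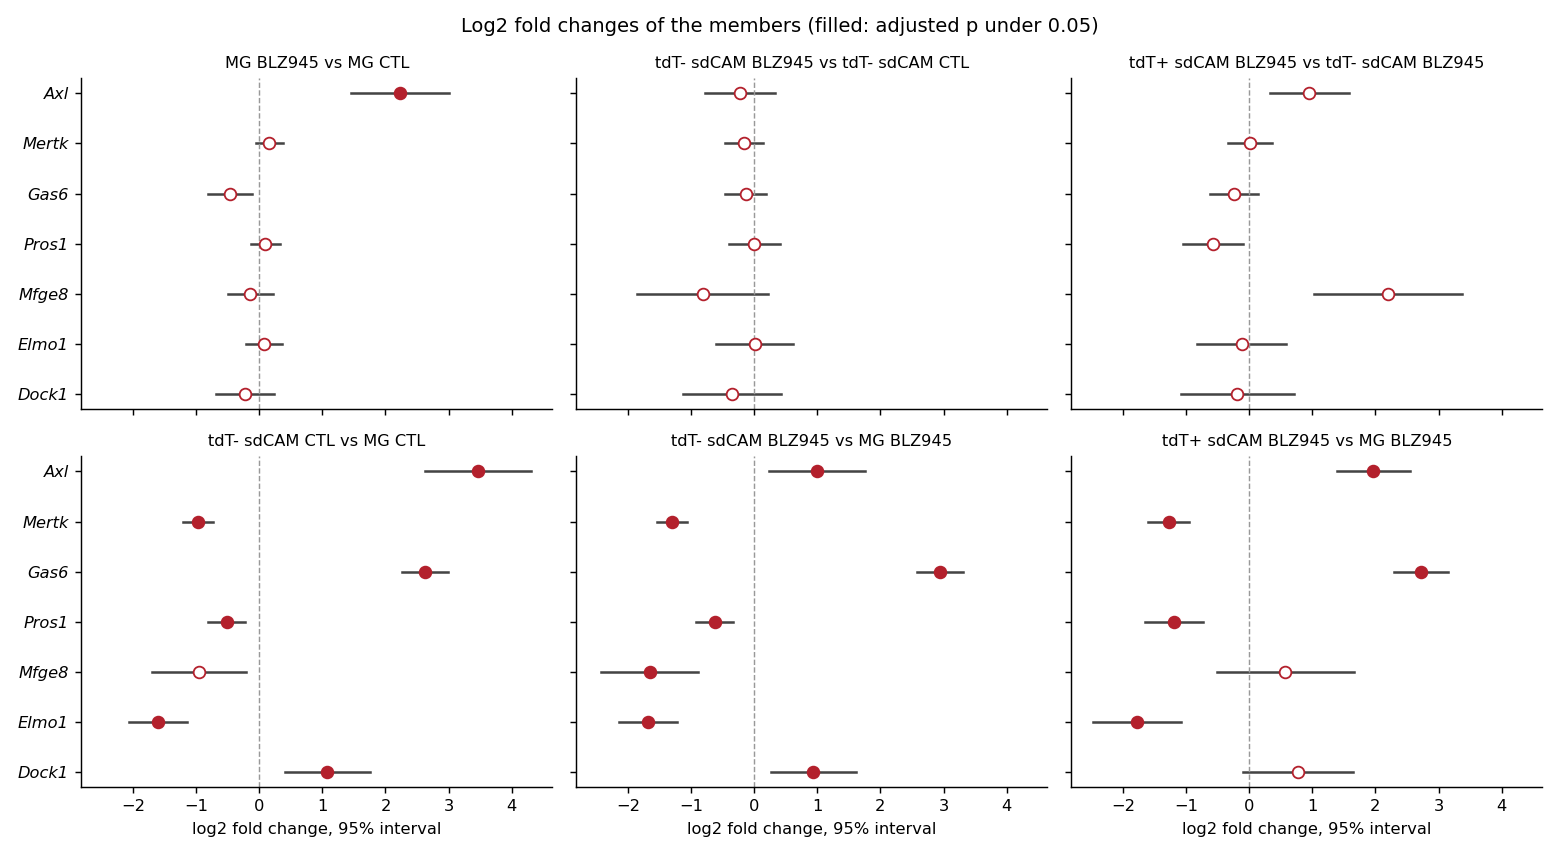
Log2 fold changes (horizontal axis) with 95% intervals of 7 members in 6 comparisons, from edgeR fits across all genes. Filled points have an adjusted p under 0.05. Axl alone was filled for MG BLZ945 against MG CTL, none among the sdCAM comparisons shown, and 6, 7 and 5 members for sdCAM against MG.

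Libraries of the same animals gave the same direction for most members. Gas6 was higher in sdCAMs in all 13 pairs with MG, by 4.92 to 12.5 times, and Mertk, Pros1 and Elmo1 were lower in all 13. The MG libraries of BLZ945 F2, F3 and M2 were paired with both tdT- and tdT+ libraries, so the 13 pairs are not independent. Axl was 3.66 to 33.8 times higher in tdT- sdCAM CTL than in MG of the same mouse, 0.907 to 2.49 times in tdT- sdCAM BLZ945 and 3.80 to 5.49 times in tdT+ sdCAM BLZ945. The 1 pair in which MG held more Axl was BLZ945 M2, whose tdT- library was also the lowest of its group.

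**Figure D5:**
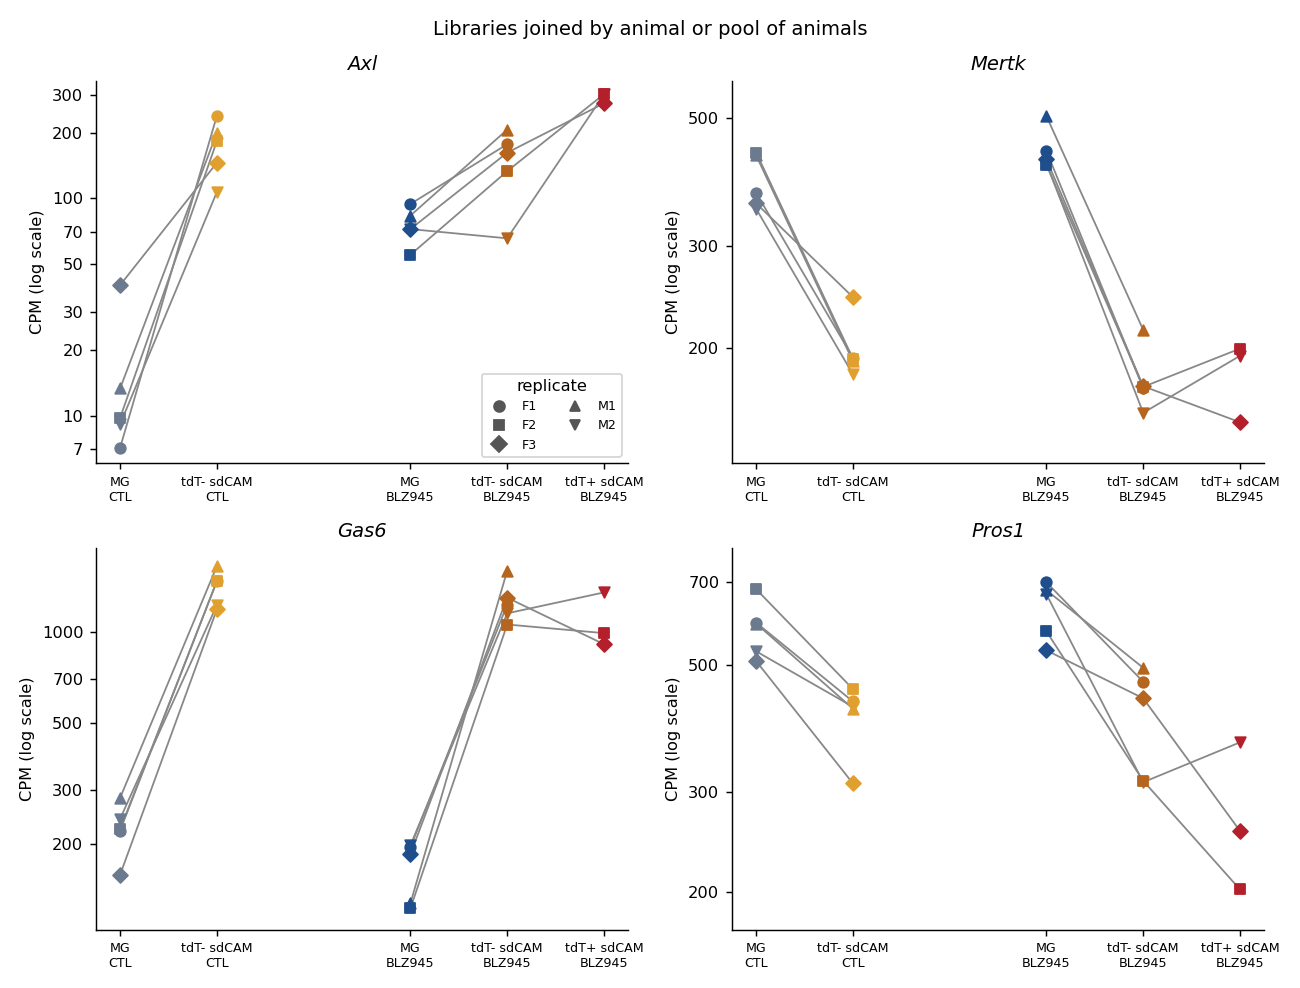
CPM (log axis) of Axl, Mertk, Gas6 and Pros1 in MG, tdT- sdCAM and tdT+ sdCAM libraries, with a line joining the libraries of the same animal or pool and a symbol for each library name. Axl fell from MG to tdT- sdCAMs in BLZ945 M2 alone (72.2 to 65.5), while Mertk and Pros1 fell and Gas6 rose along every line from MG to tdT- sdCAMs.

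Genes around the TAM system were examined in the same fits. In 4 lists of 60 genes (TAM signal regulators, other apoptotic cell receptors and bridging proteins, Rac engulfment machinery, and the LXR and PPAR response to engulfed lipid), 2 of 46 tested were called in MG BLZ945 against MG CTL (0.408% of all genes), 0 of 52 in tdT- sdCAM BLZ945 against CTL (0% of all genes) and 0 of 52 in the difference in BLZ945 response between the populations (0.0394% of all genes, with 1 gene called by DESeq2, without a filter, and without MG CTL M2 or MG BLZ945 F2). At an unadjusted p under 0.05 there were 11 of the 46 in MG, beside 1492 of all 11264 genes tested, and 3 of the 52 in tdT- sdCAMs, beside 697 of 13076. The 2 called were the scavenger and phosphatidylserine receptor Cd36 (120 ± 67.6 CPM in MG BLZ945 and 22.8 ± 16.2 in MG CTL, SD, n = 5 each, log2 fold change 2.38, adjusted p = 0.0497), whose libraries overlapped, and the phosphatidylserine receptor Cd300lf (70.9 ± 20.8 and 20.7 ± 6.3 CPM, SD, n = 5 each, 1.76, adjusted p = 0.00217), whose libraries did not. The Cd36 call was lost in 8 of 10 fits that left out 1 library (adjusted p 0.0157 to 0.132), while Cd300lf was called in all 10 and lost only in the model of all 23 libraries. The median log2 fold change over the 46 genes was 0.08, against 0.00 over all genes tested.

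Among sdCAMs of BLZ945 mice, 1 of 52 listed genes was called between the labels, beside 0.206% of all genes. This was Timd4, a phosphatidylserine receptor of resident macrophages, at 13.5 ± 9.8 CPM in tdT+ (SD, n = 3) and 169 ± 67.7 in tdT- sdCAM BLZ945 (SD, n = 5), a log2 fold change of -3.65 (adjusted p = 0.000893). It was also the 1 gene of 52 called against tdT- sdCAM CTL, beside 0.283% of all genes (211 ± 31.5 CPM, SD, n = 5, adjusted p = 0.000464).

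Between the populations, 24 of 52 listed genes were called in CTL mice (10 higher and 14 lower in tdT- sdCAMs), 29 of 52 in BLZ945 mice (11 higher and 18 lower) and 21 of 53 for tdT+ sdCAMs against MG (6 higher and 15 lower). Over all genes tested, 25.6%, 32.4% and 18.9% were called in these comparisons. Among called listed genes with an average log2 CPM of at least 3, the largest rises in CTL mice were in Timd4 (0.5 ± 0.3 to 211 ± 31.5 CPM), Cd36 (22.8 ± 16.2 to 694 ± 90.2) and the scavenger receptor Scarf1 (0.9 ± 1.2 to 22.9 ± 5.0), each from MG to tdT- sdCAMs (SD, n = 5). The largest falls were in Itgb3, an integrin partner for Mfge8 (28.5 ± 6.4 to 0.3 ± 0.2 CPM), Havcr2, a phosphatidylserine receptor also called Tim-3 (320 ± 83.1 to 24.96 ± 15.6), and Mylip, an LXR target (269 ± 23.2 to 41.4 ± 18.1; SD, n = 5 each). Within the same limit, in BLZ945 mice Timd4, Scarf1 and the phosphatidylserine receptor Stab1 (123 ± 21.3 CPM in MG and 916 ± 199 in tdT- sdCAMs, SD, n = 5 each) rose most, and the same 3 genes fell most. For tdT+ sdCAMs against MG the falls within that limit were led by Itgb3, Tgm2 (146 ± 50.4 CPM in MG, n = 5, and 16.6 ± 4.9 in tdT+ sdCAMs, n = 3, SD), a cofactor of engulfment, and Mylip.

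By list, the other apoptotic cell receptors and bridging proteins had 10 of 16 tested genes called in CTL mice (5 higher and 5 lower in tdT- sdCAMs), the LXR and PPAR list 7 of 12 (3 and 4), the TAM signal regulators 5 of 11 (2 and 3) and the Rac machinery 2 of 13 (0 and 2), beside 25.6% of all genes. In BLZ945 mice the counts were 12 of 16, 8 of 12, 6 of 11 and 3 of 13, beside 32.4%. For tdT+ sdCAMs against MG they were 9 of 16, 6 of 12, 3 of 11 and 3 of 14, beside 18.9%, and none of the called TAM regulators or Rac genes was higher in sdCAMs there. Adam10, a protease that can shed TAM receptors, and Itgb5, an integrin partner for Mfge8, were singled out after their values were seen. Adam10 was 293 ± 42.7 CPM in MG CTL and 128 ± 37.7 in tdT- sdCAM CTL, and Itgb5 was 1424 ± 218 and 328 ± 64.6 (SD, n = 5 each, adjusted p = 0.000138 and 8.92e-10).

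The genes whose levels ran most like each member over the 23 libraries are given as a description. The measure was Pearson's r of log2(CPM + 1) among 8346 genes, and the libraries share animals and fall into populations, which raises r. For Axl they were H2-K1 (r = 0.911), Oas1a (0.907) and Ifi204 (0.906). Oas1a averaged 18.7 CPM in MG CTL, 39.1 in MG BLZ945, 90.3 in tdT- sdCAM CTL, 72.4 in tdT- sdCAM BLZ945 and 87.5 in tdT+ sdCAM BLZ945. For Mertk they were Cx3cr1 (0.978), Ski (0.972) and Ikzf1 (0.966), and for Gas6 Cd38 (0.989), Cd163 (0.987) and Aldh2 (0.986). Cd163, which tracked Gas6 between MG and sdCAMs, averaged 1457 CPM in tdT- and 353 in tdT+ sdCAM BLZ945, where Gas6 averaged 1263 and 1082. For Pros1 they were Tnfrsf21 (0.940), Ube2z (0.935) and Bmp2k (0.931), for Elmo1 Bbs9 (0.961), P2ry13 (0.960) and Slc2a5 (0.950), for Mfge8 Csnk2a1 (0.848), Brf1 (0.829) and Atg16l1 (0.822), and for Dock1 Nsmce2 (0.829), Rbms2 (0.822) and Pdcd6 (0.820).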

How the data were processed

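Bulk RNA sequencing (SMART-Seq libraries) was measured in 23 sorted libraries. Per the labels and the methods of the study, the authors demultiplexed reads with bcl2fastq 2.20, aligned them with STAR 2.7.11a, counted them per gene with featureCounts (2.0.6 in the processing notes, a later version in the methods) and used DESeq2 1.46.0. The table the authors deposited gives raw read counts, 1 row per gene symbol. The methods name 2 mouse builds without saying which served here, so no position of the counts is given, and strand and multi-gene handling were not stated in the sources used here.

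The main test was edgeR 4.0.16 (R 4.3.3) quasi-likelihood with TMM factors, filterByExpr and Benjamini-Hochberg adjustment, fitted on the 10 MG, 13 sdCAM, 20 MG and tdT- sdCAM, or 13 BLZ945 libraries. DESeq2 1.42.0, RLE factors, the filter of the study, no filter, 1 model of 23 libraries, a replicate block and leaving out each library were alternatives, and a fit of tdT+ against tdT- BLZ945 cells with the animal as a block was added after the data were seen. Replicates were separate animals or pools. Same-named libraries within a treatment came from the same animals, by the animal numbers in the labels, and their deviations from the group means correlated at 0.0739 to 0.142 on average. Libraries of different treatments, which share only a name, averaged -0.00756 to 0.0776, the highest being MG CTL with MG BLZ945. Scripts were tested on simulated counts.

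The members were named with every comparison. Of the pathway lists, up to 3 called genes per direction with an average log2 CPM of at least 3 were named, and for each member of at least 5 CPM the 3 genes of at least 10 CPM most correlated with it. Exon lengths came from Gencode vM21, promoters from RefSeq. Members and lists were chosen with earlier results of these data known.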

Additional observations from a re-analysis of the deposited data

Results flagged for a closer look

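In 32 groups of 5 libraries tested, with 8 members in 4 groups, 6 values stood farther from the other libraries than Dixon's 95% limit allows. Chance gives about 1 in 20 such groups. Axl was 39.9 CPM in MG CTL F3, against 7.11 to 13.32 in the other 4 libraries, and Tyro3 was 1.36 CPM in the same library. Mertk was 503 CPM in MG BLZ945 M1 and 215 in tdT- sdCAM BLZ945 M1, both the highest of their groups and both from the same animals. Mertk was 245 CPM in tdT- sdCAM CTL F3, the highest of its group, and Pros1 was 310 CPM in that library, the lowest. None was left out of the main results.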

How the results depend on the processing

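Of 19 called member differences, 294 values under other settings all kept their direction and 20 lost their call, in Axl and Dock1 for tdT- sdCAM BLZ945 against MG BLZ945 and in Dock1 for tdT- sdCAM CTL against MG CTL. Of 754 values for 44 uncalled differences, 7 were newly called. DESeq2 (adjusted p = 0.0234) and leaving out tdT- sdCAM CTL M2 (0.0364) called Mfge8 for tdT- sdCAM CTL against MG CTL. DESeq2 and the model of 23 libraries each called 1 member (Mfge8) for tdT+ against tdT- sdCAM BLZ945, and DESeq2, no filter and leaving out MG CTL F3 each called 1 (Axl) for the difference in BLZ945 response. The cause was not tested.

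Leaving out 1 library gave 1 called member for MG BLZ945 against MG CTL throughout, 0 in the 3 sdCAM comparisons, 6 for tdT- sdCAM CTL against MG CTL, 5 to 7 for tdT- sdCAM BLZ945 against MG BLZ945, 5 for tdT+ sdCAM BLZ945 against MG BLZ945 and 0 to 1 for the difference in response.

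With the replicate block, Axl in MG BLZ945 against MG CTL was 2.51 (adjusted p = 0.00103), where CTL and BLZ945 libraries share only a name, as they do in the sdCAM fits, and member counts were 1, 0, 0, 0, 5, 5, 5 and 0 in the order of the comparisons above, with the difference in response last. The block changed no other member call than Axl and Dock1. With the animal as the block in the 13 BLZ945 libraries, added after the data were seen, tdT+ against tdT- sdCAMs gave 0 called members, 6 genes called over all and Elmo1 at 0.068. Over all genes, DESeq2 called 5.91 times the 46 of edgeR in MG, 69 in tdT- sdCAMs (0), 188 and 228 for tdT+ sdCAMs against tdT- BLZ945 (27) and CTL (37) and 110 for the difference in response (5). The model of 23 libraries called 12, 29, 82, 121 and 1, no filter 193, 0, 29, 61 and 9, the block 89, 0, 15, 36 and 1, and the filter of the study gave 2 for the last. Of the listed pathway genes, the model of 23 libraries called 1 in MG (2 in the main result) and DESeq2 3 and 2 for tdT+ sdCAMs against tdT- BLZ945 and CTL (1 each). The model of 23 libraries called 2 for the latter, DESeq2 and no filter each called 1 for the difference in response (0), and leaving out 1 library gave 1 to 3 in MG and 0 to 1 for the difference in response.

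Signs changed only in uncalled values. For tdT- sdCAM BLZ945 against CTL, Pros1 (0.01 in the main result) was -0.018 with the filter of the study, -0.0053 without a filter, -0.0099 with the replicate block and -0.0046 in the model of 23 libraries, and Elmo1 (0.01) was -0.015, -0.0046, -0.036 and -0.0038. Elmo1 was 0.11 and 0.078 with the block for tdT+ against tdT- sdCAM BLZ945 and CTL. Leaving out 1 library, Elmo1 ranged from -0.017 to 0.16 in MG, -0.25 to 0.17 in tdT- sdCAMs, -0.32 to 0.19 and -0.33 to 0.19 for tdT+ against tdT- BLZ945 and CTL, and -0.34 to 0.080 for the difference in response. Pros1 ranged from -0.080 to 0.080 in tdT- sdCAMs. For tdT+ against tdT- sdCAM BLZ945, Mertk ranged from -0.039 to 0.15, Dock1 from -0.40 to 0.047 and Tyro3 from -1.99 to 0.67. Dock1 ranged from -0.37 to 0.075 for the difference in response and Tyro3 from -0.11 to 2.59 for tdT+ sdCAM BLZ945 against MG BLZ945. At 9433960 to 13276081 counts per library, Tyro3 was at or under 3 counts in 6 of 10 MG libraries. Its difference between tdT- sdCAM CTL and MG CTL (2.53) had an unadjusted p of 0.0471 and was not called after adjustment (0.137).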
